A study of Mus musculus with 12 samples.

Results

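The transient regions of the 2 h response are stretches of mouse chromatin that were called open in macrophages at 2 h of lipopolysaccharide (LPS, from the bacterial outer membrane) and mostly not called before it or at 6 h. The peaks of 12 libraries were chained into regions wherever they overlapped by 1 bp or more, and a region counted as called in a library whose list placed a peak in it. It was transient when at least 3 of 4 libraries at 2 h called it, at most 1 of 4 at 0 h and at most 1 of 4 at 6 h, on the 19 autosomes. This rule kept 1304 of 112047 autosomal regions, or 1.16%. The series as a whole held 115231 regions. The calls chose these regions, so their pattern over time is a description with no test.

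The libraries came from bone marrow-derived macrophages of female C57BL/6 mice, either lincRNA-EPS knockout (KO) or wild type (WT). All cells had been cultured for 9 days with 20% L929 supplement and then given 100 ng/ml LPS for 0, 2 or 6 h, with 50000 cells in each transposition reaction. The assay was ATAC-seq, in which the Tn5 transposase cuts accessible DNA. Each of the 6 groups had 2 libraries, and the labels do not say whether these came from separate animals or cultures, so a p-value measures only the spread between libraries, which may be technical. The peak names inside the 4 lists labelled 2 h read 1 h, a conflict that could not be settled, so the 2 h time may be 1 h.

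LPS binds Toll-like receptor 4 on macrophages and activates NF-κB, AP-1 and, later, interferon-driven factors. These factors bind enhancers and promoters, some open beforehand and others opened by the stimulus, and early response genes are often shut down again by feedback inhibitors. LincRNA-EPS is a nuclear long noncoding RNA of macrophages known for restraining immune response genes. All coordinates below are of the mm9 build. An mm9 gene annotation or genome was not used here, so no gene, marker or sequence is assigned to a region.

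The 12 lists held 54771 to 91610 peaks. Since the sources used here give no read numbers, a relative depth was recovered as the lowest background coverage in each list. It was 1.43 to 2.51 reads at 0 h, 2.32 to 3.04 at 2 h and 2.17 to 3.35 at 6 h. KO 0 h replicate 2 was the shallowest library and KO 6 h replicate 1 the deepest. Mean background coverage was therefore highest at the time that defines the transient regions, with 2.01 at 0 h, 2.80 at 2 h and 2.59 at 6 h. The main counts are also given for lists thinned until every library matched the background coverage of the shallowest.

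Of the 1304 transient regions, KO libraries at 0 h called 186 and 49 and WT libraries 245 and 240, with replicate 1 before replicate 2 here and below. At 2 h, KO libraries called 1049 and 1085 and WT libraries 1143 and 980. At 6 h, KO libraries called 352 and 90 and WT libraries 125 and 138. The 2 h libraries lie above all others. The rule requires a higher mean over the libraries at 2 h, but not a higher count in each of them. Among the 6 h libraries the deepest, KO 6 h replicate 1, stood apart with 27.0% of the regions, against 6.90% to 10.6% in the rest. Among the 0 h libraries the shallowest, KO 0 h replicate 2, called 3.76%, against 14.3% to 18.8% in the rest.

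**Figure D1:**
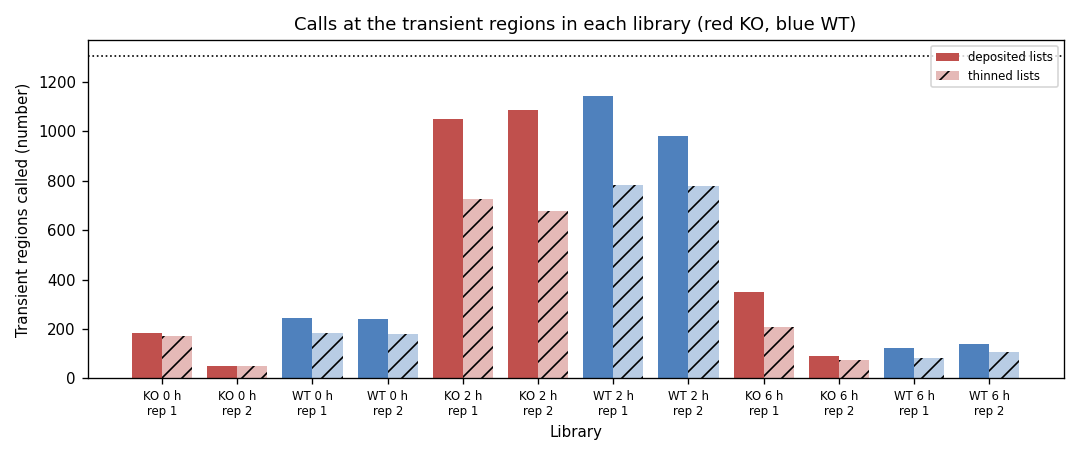
Number of the 1304 transient regions (dotted line) called in each library, in time order with KO (red) before WT (blue), in the deposited lists (solid bars) and the thinned lists (hatched bars). The 2 h libraries call 980 to 1143 regions, and KO 6 h replicate 1 calls 352, more than the other libraries at 0 and 6 h.

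Most members met the rule narrowly. All 4 libraries at 2 h called 345 regions (26.5%), and 959 (73.5%) were called in 3. The cleanest form, called in 4 of 4 libraries at 2 h and 0 of 4 at both other times, held 57 regions, 4.37% of the members and 0.0509% of all autosomal regions. Under that strict form 0 regions (0%) were called at 0 h alone, and 0 (0%) at both 0 h and 6 h. At the other end, 284 regions (21.8%) stood just inside the rule on all sides, with 3 calls at 2 h, 1 at 0 h and 1 at 6 h. Just outside it were 2400 regions with 2 calls at 2 h, 688 with 2 calls at 0 h and 837 with 2 calls at 6 h. The strength of their 2 h peaks was given by the percentile of −log10 q within each list, where 100 is the strongest peak. The median over regions was 16.8 for the 284 just inside, and 12.5, 19.5 and 17.4 for those 3 kinds just outside.

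The transient pattern was set beside the other patterns of calls over time, counted with the same thresholds of 3 and 1 libraries. Only 162 regions (0.145%) were called at 0 h alone and 217 (0.194%) at 0 h and 6 h but not at 2 h, the mirror image of the transient pattern. Regions called at 6 h alone numbered 9449 (8.43%). The transient count was thus 6.01 times the mirror count and 8.05 times the 0 h-only count, and the 6 h-only count was 7.25 times the transient count. In thinned lists the transient, 0 h-only, mirror and 6 h-only counts were 963, 323, 421 and 8252. With every list reduced to its 54771 strongest peaks they were 820, 811 and 427, so transient and 0 h-only regions were then equally frequent. The transient count was above the mirror count in these 3 settings, but with WT 2 h replicate 1 left out it was below it, at 506 against 626. There a transient region needs all 3 libraries left at 2 h, a tighter rule, while a mirror region may have 1 call among these 3, a looser one.

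**Figure D2:**
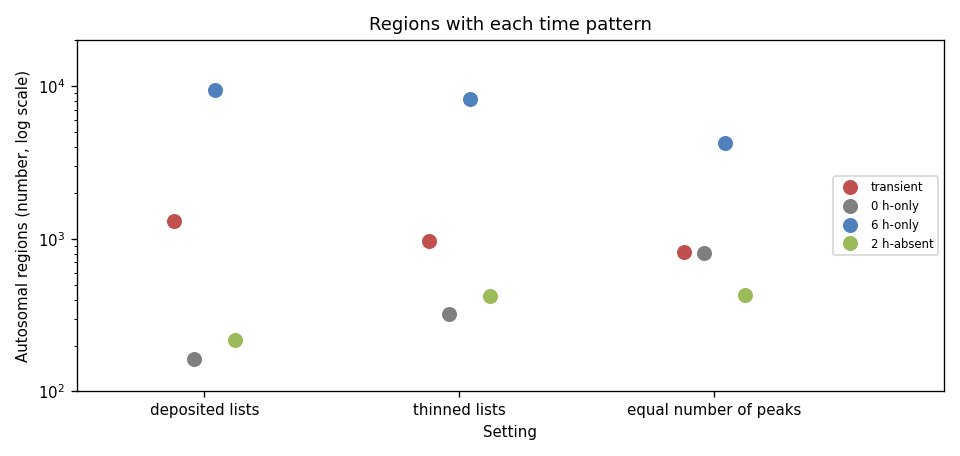
Number of autosomal regions (log scale) with each pattern of calls: transient, called at 0 h only, called at 6 h only, and absent at 2 h alone, in the deposited lists, the thinned lists and lists of equal length. The transient count of 1304, 963 and 820 lies above the 2 h-absent count of 217, 421 and 427, and meets the 0 h-only count in lists of equal length.

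Transient regions were the minority of those that opened early. By 2 h, 6032 autosomal regions (5.38%) had been opened, meaning called in at least 3 of 4 libraries at 2 h and at most 1 of 4 at 0 h. Of these, 3891 (64.5%, and 3.47% of all autosomal regions) were called in 3 or 4 libraries at 6 h, 837 (13.9%) in 2, and 1304 (21.6%) were transient. The transient share was 23.6% of 4086 regions in thinned lists, 37.9% in lists of equal length and 6.43% where all 4 libraries had to concur at each time.

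Among the 57 cleanest regions, the strongest was found on chromosome 10, from 5368775 to 5369185. It ranked at percentiles 42.3 and 40.8 in the KO libraries at 2 h and at 39.4 and 35.2 in the WT libraries, with a fold over background of 6.43 to 6.86 (the authors' values). The 4 libraries gave nearly the same rank, and their summits lay within 66 bp of each other. The region lay 66.8 kb from the nearest region called in all 12 libraries. A region on chromosome 2 at 156007036 to 156007431 was the most even of the 15 named, at 26.3 and 26.5 in KO and 26.5 and 26.2 in WT libraries. It lay 1.34 kb from a region called in all 12 libraries, on a local background 4.52 times that of the library.

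The next region, on chromosome 5 at 143674393 to 143674767, stood at 40.9 and 27.7 in KO and at 29.0 and 52.5 in WT libraries. Chromosome 18 held the third, at 52757968 to 52758319, with 29.1 and 36.2 in KO and 26.3 and 44.7 in WT libraries. In both, the values of the genotypes overlapped. A region on chromosome 5 at 144136864 to 144137228 gave 52.0 and 13.2 in KO and 36.3 and 32.0 in WT libraries, and one on chromosome 3 at 60303021 to 60303343 gave 49.6 and 30.1 in KO libraries and 30.4 in WT replicate 1, with the lowest value in WT replicate 2. On chromosome 19 at 32461006 to 32461362 the values were 26.2 and 27.0 in KO and 35.0 and 26.9 in WT libraries. That region had the lowest fold of the 15, 3.04 ± 0.082 (SD, n = 4), on a local background 5.74 times that of the library.

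In 4 of the 15 both KO libraries lay above both WT libraries, and in 0 of the 15 the reverse. Besides the leading chromosome 10 region these were the 3 that follow. The region on chromosome 3 at 106277049 to 106277446 stood at 56.6 and 25.7 in KO against 8.6 and 20.6 in WT libraries. On chromosome 13 at 20257134 to 20257569 the values were 32.4 and 48.1 in KO against 9.8 and 8.7 in WT libraries. On chromosome 17 at 35834878 to 35835227 they were 36.8 and 39.2 in KO against 4.8 and 7.0 in WT libraries. Over all 345 members called in 4 of 4 libraries at 2 h, KO lay above WT in 66 (19.1%) and WT above KO in 50 (14.5%). Over the 57 cleanest regions KO lay above WT in 12 (21.1%) and WT above KO in 3 (5.26%). The background over all autosomal regions called in 4 of 4 was 16.8% and 17.4%, so the shares of the 345 were near it, while the WT share of the 57, a count of 3, was lower. An exact two-sided test of 2 libraries against 2 cannot give a p below 0.333, and percentiles come from lists of different lengths, so no region was tested.

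The other 5 of the 15 had mean percentiles of 22.6 to 25.8. One, on chromosome 16 (12063763 to 12064170), had 33.8 and 21.9 in KO and 31.2 and 16.3 in WT libraries. Another, on chromosome 11 (52485462 to 52485942), had 23.2 and 25.7 in KO and 41.7 and 11.5 in WT libraries and lay 263 kb from the nearest region that every library called. The others lay on chromosome 17 (9961134 to 9961510), chromosome 14 (60309650 to 60310099) and chromosome 10 (68615179 to 68615579). The chromosome 10 region showed the widest spread among them, 39.7 and 2.1 in KO and 28.0 and 20.6 in WT libraries. Of the 15, 10 were still transient in thinned lists, and of all 57, 35 were.

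**Figure D3:**
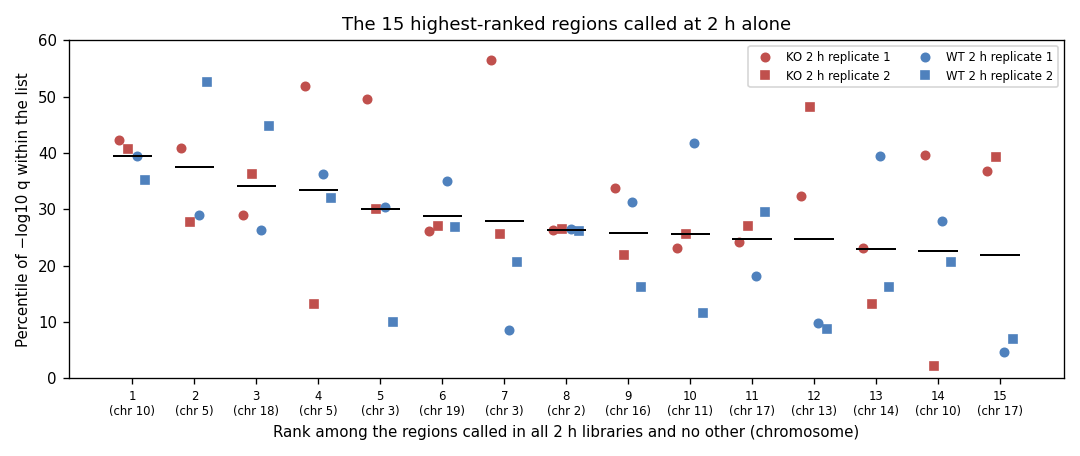
Percentile of −log10 q within its list of each peak at the 15 highest-ranked regions called by every 2 h library and by none at 0 and 6 h (KO red, WT blue, circles replicate 1, squares replicate 2, black lines the mean of the 4). Regions 1 (chromosome 10) and 8 (chromosome 2) have the closest values, and regions 1, 7, 12 and 15 have both KO libraries above both WT libraries.

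The highest-ranked transient regions of all had a call outside 2 h. A region on chromosome 4 at 144950774 to 144951431 stood at percentiles 47.0 and 57.1 in KO and 51.5 and 48.5 in WT libraries at 2 h, and their fold averaged 7.96 ± 0.43 (SD, n = 4). Its only other call was in WT 0 h replicate 2, at percentile 35.8. Chromosome 18 held the next, at 5395927 to 5396472, with 51.6 and 48.5 in KO and 49.3 and 42.0 in WT libraries at 2 h, and calls at 23.6 in WT 0 h replicate 2 and at 15.9 in KO 6 h replicate 1. All 4 of its 2 h summits fell within 10 bp.

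The next regions in rank showed the same kind of record. The region on chromosome 6 at 116190377 to 116190845 stood at 44.7 and 55.4 in KO and 47.8 and 32.0 in WT libraries at 2 h, with a single call at 6 h, at 34.5 in KO 6 h replicate 1. The region on chromosome 11 at 53616404 to 53616978 stood at 49.4 and 37.6 in KO and 44.5 and 34.0 in WT libraries. It was called at 2.2 in WT 0 h replicate 2 and at 25.7 in KO 6 h replicate 1, and lay 2.83 kb from a region opened by 2 h and still called at 6 h. In each of these 4 regions the KO and WT values at 2 h overlapped.

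Over all members, a call at 0 h was present for 720 regions (55.2%) and a call at 6 h for 705 (54.1%). The single call at 6 h came from KO 6 h replicate 1, the deepest library, in 352 regions (49.9%), and from the rest in 90 to 138. The single call at 0 h came from KO libraries in 186 and 49 regions and from WT libraries in 245 and 240. Background coverage was 1.77 and 1.43 in KO and 2.35 and 2.51 in WT libraries at 0 h, and 3.35 and 2.17 in KO and 2.67 and 2.18 in WT libraries at 6 h. The deepest library at 6 h gave the most single calls and the shallowest at each time the fewest, but among the WT libraries the deeper one gave slightly fewer at both times. The part of depth in single calls was not tested.

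At 2 h each transient region was missed by at most 1 library. A KO library missed 474 regions (36.3%), 255 by replicate 1 and 219 by replicate 2. A WT library missed 485 (37.2%), 161 by replicate 1 and 324 by replicate 2. The library with the lowest background coverage at 2 h, WT 2 h replicate 2 at 2.32, missed the most. Of the regions opened by 2 h and still called at 6 h, a KO library missed 22.1% and a WT library 30.4%. The difference between these shares and those of the transient regions was not tested. Among regions missed by 1 WT library and called nowhere else than 2 h, the strongest was on chromosome 11 (107456123 to 107456530), with 30.5 and 38.2 in KO and 43.7 in the other WT library. It was followed by a chromosome 6 region (90701612 to 90702012) and a chromosome 19 region (57089306 to 57089648). Among those missed by 1 KO library the strongest was on chromosome 18 (11369001 to 11369421), with 30.5 in the other KO and 24.6 and 38.2 in WT libraries. Next came a chromosome 1 region (145851926 to 145852219) and a chromosome 17 region (34454291 to 34454584). The chromosome 1 region had a summit coverage of 78 to 84 reads but a fold of only 2.36 ± 0.16 (SD, n = 3), on a local background 12.5 times that of the library and 0.700 kb from a region called in all 12 libraries.

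Whether the pattern recurs in libraries that did not choose the regions was tested by choosing on one genotype and measuring in the other. On WT libraries alone, 750 regions (0.669%) were called in 2 of 2 at 2 h and 0 of 2 at 0 h and 6 h. Of these, 398 (53.1%) were among the 1304 members. KO libraries called 23.2% and 8.53% of the 750 at 0 h, 45.2% and 47.6% at 2 h, then 38.1% and 19.5% at 6 h. Both 2 h libraries lay above the other 4, the nearest being the deepest library, KO 6 h replicate 1. The difference of 2 h from the other times was 24.1 percentage points, with an exact two-sided permutation p = 0.133.

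The same choice on KO libraries alone gave 867 regions (0.774%), of which 452 (52.1%) were among the 1304 members. The rest of both sets were not members, so the differences are not those of the 1304. WT libraries called 31.7% and 29.9% of the 867 at 0 h, 58.6% and 41.8% at 2 h, but 21.6% and 22.7% at 6 h. The difference was 23.7 points, again with an exact two-sided permutation p = 0.133, which is the smallest that 2 libraries against 4 can give, so the design cannot pass a threshold of 0.05. Background coverage in these WT libraries was 2.35 and 2.51 at 0 h, 3.03 and 2.32 at 2 h, and 2.67 and 2.18 at 6 h, and its part in the difference was not tested. Only 57 regions met both definitions, 7.60% of the WT set and 6.57% of the KO set. Both definitions together are the strict form, so these are the 57 cleanest regions above and not a separate result.

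Over all autosomal regions, KO libraries called 54.6% and 45.7% at 0 h, 60.9% and 62.6% at 2 h, and 77.4% and 65.8% at 6 h. WT libraries called 56.2% and 55.9% at 0 h, 65.3% and 59% at 2 h, then 68.8% and 71.3% at 6 h. The 2 h libraries thus did not call the most regions, but on average they also called more of the 0 h-only sets, which were not chosen at 2 h. WT regions called at 0 h only, 227 in number (0.203%), were called in KO libraries at means of 22.0% at 0 h, 31.9% at 2 h and 24.0% at 6 h. The 84 KO regions of that kind (0.075%) were called in WT libraries at 25.6%, 39.9% and 23.2%. Single libraries overlapped or nearly so. For the WT set, KO 2 h replicate 1 called 28.2%, below 33.9% in KO 0 h replicate 1 and 32.2% in KO 6 h replicate 1. For the KO set, WT 2 h libraries called 50% and 29.8%, the second close to 28.6% in WT 0 h replicate 2. The mean excesses of 2 h over the other times in these 0 h-only sets, 8.92 and 15.5 points, had exact two-sided permutation p = 0.533 and 0.133. The second p was the same as that of the transient sets. The 24.1 and 23.7 points are to be read beside these excesses. The 0 h-only sets are small and were chosen to lack calls at 2 h in one genotype, so they are not a neutral level. By contrast, the 6 h-only sets, 6615 regions chosen on WT (5.9%) and 7330 on KO (6.54%), were called in the other genotype at 77.9% in KO and 72.7% in WT libraries at 6 h, and at 12.8% and 12.3% at 2 h.

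The distance between transient and 0 h-only sets was smaller in thinned lists. There the transient sets differed by 14.0 points in KO and 16.8 points in WT libraries, both with an exact two-sided permutation p = 0.133. The 0 h-only sets differed by 10.1 points in KO and 10.3 points in WT libraries, with exact permutation p = 0.400 and 0.267. The gap between the 2 kinds of set was not tested. Of the 1304 members, 542 (41.6%) still met the rule in thinned lists, which rest on 1 random draw.

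**Figure D4:**
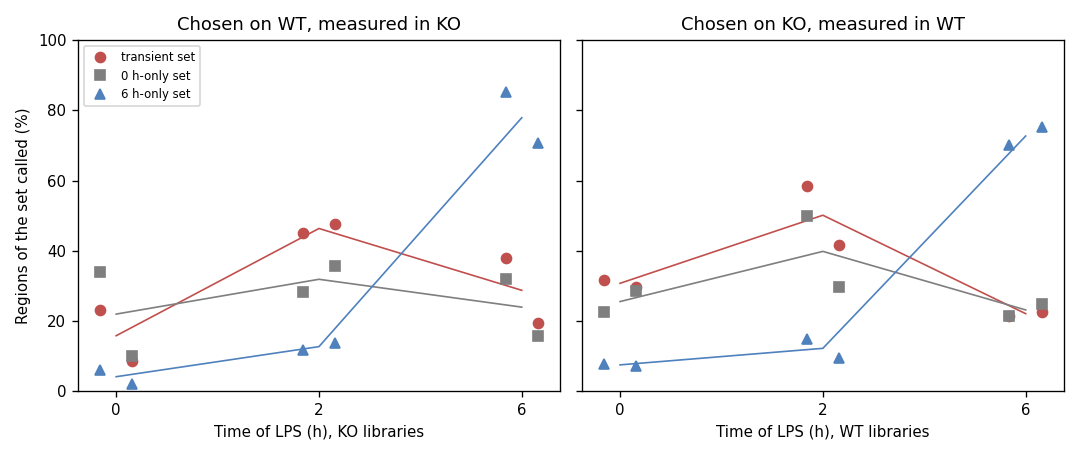
Share of regions called (%) in each library of one genotype at 0, 2 and 6 h, for sets chosen on the other genotype alone: transient (circles), 0 h-only (squares) and 6 h-only (triangles), with lines through the mean of the 2 libraries. Left, sets chosen on WT and measured in KO, and right, sets chosen on KO and measured in WT. The transient sets peak at 2 h, at means of 46.4% and 50.2%, and the 0 h-only sets also stand higher at 2 h than at 0 and 6 h.

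Transient peaks were weak within their lists. Their mean percentile at 2 h had a median of 16.4 over the 1304 regions and a maximum of 51.0, and 235 regions (18.0%) lay under the 10th percentile. The 0 h-only and mirror regions were as weak in the 0 h lists, with medians of 14.4 and 15.5. Low rank was therefore not particular to transient regions. Regions opened by 2 h and still called at 6 h had a median of 20.9 and a maximum of 70.1, with 8.07% under the 10th percentile. The order held in each 2 h library. Median percentiles of transient and still-called regions were 15.6 and 21.8 in KO replicate 1, 16.6 and 21.9 in KO replicate 2, 16.8 and 22.1 in WT replicate 1 and 13.8 and 19.3 in WT replicate 2. Median summit coverage was 18 to 21 reads for transient and 19 to 23 reads for still-called regions. Regions are not replicates and weak regions miss more calls, so no test was made. A region not called may still be open below the calling threshold, and in bulk libraries opening in fewer cells cannot be told apart from weaker opening in all.

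Transient regions were narrow, with a median width of 384 bp (quartiles 338 and 450), against 488 bp for still-called, 430 bp for 6 h-only regions and 775 bp for those that all 12 libraries called. The 0 h-only regions had a similar median, 378.5 bp. A region spans all its peaks, so one called in fewer libraries tends to be narrower. Summits of the 2 h peaks lay within 100 bp of each other at 51.2% of transient regions, 49.0% of still-called regions and 63.9% of regions called in all 12 libraries. This spread is a range over the libraries that called a region, and a range over fewer summits tends to be narrower. All 4 libraries at 2 h called 26.5% of transient and 47.5% of still-called regions. The shares therefore do not show whether peak positions varied equally in the 2 kinds.

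**Figure D5:**
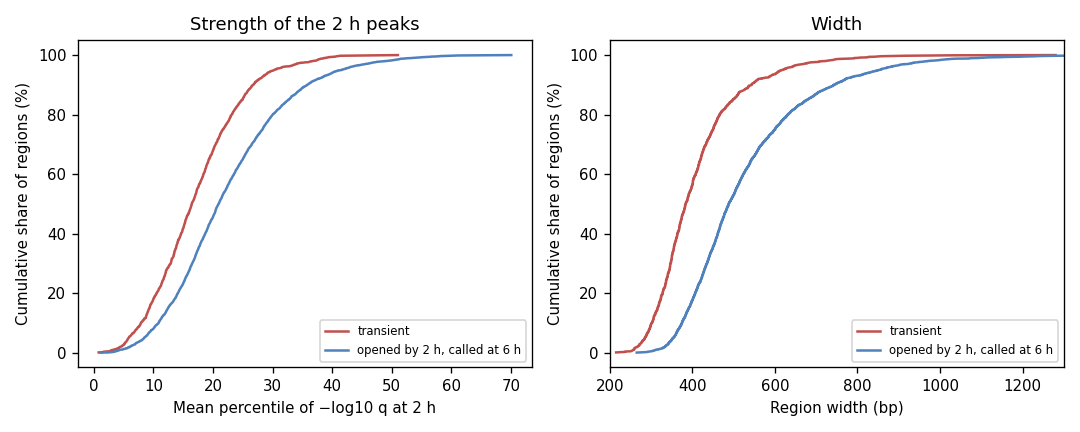
Cumulative share (%) of regions by mean percentile of −log10 q at 2 h (left) and by width in bp (right), for transient regions (red) and regions opened by 2 h and still called at 6 h (blue). Transient regions lie to the left in both, with medians of 16.4 and 20.9 for the percentile and 384 and 488 bp for the width.

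Transient regions were found on all 19 autosomes. The median distance to the nearest region called in all 12 libraries was 8.48 kb for transient and 8.69 kb for still-called regions, with 35.1% and 32.4% within 5 kb. Within 1 kb the shares were 7.59% and 4.55%, and 7.12% for regions called to 2 h and lost by 6 h. The local background exceeded 3 times that of the library at 197 transient regions (15.1%) and at 12.5% of still-called regions. It did so at 34.7% of regions called in all 12 libraries and 19.2% of those lost by 6 h. For 6 h-only and 0 h-only regions the shares were 13.4% and 6.79%. A high local background was therefore not particular to transient regions. Among the 57 cleanest the number was 16, a count that was not tested. By chromosome, the transient share of all regions ran from 0.723% on chromosome 14 to 1.66% on chromosome 17, with 1.53% on chromosome 19 and 1.43% on chromosome 11.

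Most members stood alone. With steps of at most 100 kb, 1029 (78.9%) had no transient neighbour and 275 (21.1%) fell into 124 groups. The largest group held 7 transient regions over 377 kb of chromosome 17, from 34317466 to 34694336. That span held 61 regions, of which 23 were called in all 12 libraries and 4 had opened by 2 h and were still called at 6 h. Its strongest member, at 34693872 to 34694336, stood at 35.4 and 23.0 in KO and 49.9 and 53.7 in WT libraries, with calls in WT 0 h replicate 2 and KO 6 h replicate 1. The other 6 had mean percentiles of 10.5 to 26.7.

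A group of 6 lay on chromosome 15 from 85863502 to 86032723, a span of 24 regions with 8 called in all 12 libraries and 0 opened by 2 h and still called at 6 h. All 6 were weak, at mean percentiles of 7.07 to 19.4, and 1 of them, at 86032375 to 86032723, was among the 57 cleanest. One of 2 groups of 4 lay on chromosome 17 from 25567445 to 25653547, where mean percentiles were 9.13 to 19.8 and 1 of 8 regions was called in all 12 libraries. In thinned lists 4 of the 7, 2 of the 6 and 2 of the 4 remained transient.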

How the data were processed

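Each library has its own peak list, made by the authors. Bowtie2 2.1.0, Picard, MACS2 and the mm9 build are named, per the submitters' processing notes. The sources used here do not give the handling of duplicates and of the Tn5 offset, or the MACS2 options. Peaks were called library by library, per the peak names. In the deposited lists each peak has a fold (ratio of summit to local background), −log10 of p and of q, and a score of 10 times the latter. All stem from the authors and were used within a list only.

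Coverage was recovered by solving fold and p for a whole number of reads, within 0.001 of the deposited −log10 p for 100% of peaks. Thinned lists keep peaks whose randomly thinned coverage passes a −log10 p of 4.28. The thinning was drawn 1 time, so counts and named regions in thinned lists may change with another draw. Background coverage is not read number, and a call carries no counting interval. The strongest peak stood for a region in a library. Shares in the other genotype were compared by exact two-sided permutation over libraries.

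Named regions were the 15 cleanest by mean percentile, the top 3 of those missed by 1 WT or 1 KO library, the top 3 with a call at 0 h or 6 h, and the members of 3 groups. The members and this rule were chosen with earlier results of these data known. Alternatives stand in the closing section. The merging, pattern counting and coverage recovery were tested on simulated peak lists, where every region that was not transient was called in all libraries. Weak regions near the calling threshold and unequal depth were not simulated, so the simulation does not bear on them. Python 3.11.15, numpy 2.4.6, pandas 2.3.3 and scipy 1.17.1 were used.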

Additional observations from a re-analysis of the deposited data

Results flagged for a closer look

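Of 60 sets of 4 libraries tested for an outlying value, 2 stood out, and chance flags about 1 in 20. KO 0 h replicate 2 had 54771 peaks, far below the other 0 h libraries at 65506 to 67128. At the region on chromosome 19 at 32461006 to 32461362, WT 2 h replicate 1 gave a percentile of 35.0, apart from 26.2 to 27.0 in the other 2 h libraries. On the X chromosome, which the rule leaves out, 27 of 3184 regions met the transient pattern, more than the 6 called at 0 h only.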

How the results depend on the processing

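The count of 1304 transient regions was 963 after thinning, 820 with lists of equal length, 1310 at −log10 q of at least 5, 1415 at 50% overlap, 1331 with the X chromosome and 57 with 4 of 4 and 0 of 4 libraries. The 0 h-only count was 323 after thinning, 811 with equal lists, 286 at 50% overlap and 0 under the strictest rule. The 6 h-only count was 4248 with equal lists and 3244 under the strictest rule, and the mirror count (absent at 2 h alone) 421 after thinning, 427 with equal lists and 0 under the strictest rule. The transient share of regions opened by 2 h was 23.6% after thinning, 37.9% with equal lists and 6.43% under the strictest rule. The strictest rule asks for more libraries and so keeps fewer regions; the cause of the other moves was not tested.

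Leaving out 1 library with the thresholds of 3 and 1 kept, the transient count ran from 506 without WT 2 h replicate 1 to 1950 without KO 6 h replicate 1. With these same libraries left out the share was 16.2% and 32.3%, its lowest and highest. The count was 669 without WT 2 h replicate 2, and 600 and 564 with KO 2 h replicate 1 or 2 left out, where all 3 libraries left at 2 h must call. Leaving out a 0 h or 6 h library loosens the rule, to at most 1 of 3 calls at that time, and the count was then 1430 to 1950. Leaving out a 2 h library loosens the mirror rule in the same way. The 0 h-only count ran from 27 and the mirror count from 56, with WT 0 h replicate 1 left out, to 327 and 626 with WT 2 h replicate 1 left out, where the mirror count exceeded the transient count. The 6 h-only count was 5624 with KO 6 h replicate 1 left out, 6098 with WT 6 h replicate 2 left out, and 10833 at most. With the shallowest and the deepest library both left out, a setting chosen after the data were examined, the transient count was 2168, the 6 h-only count 5720, the mirror count 74 and the share 30.9%.

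The 2 h excess in the other genotype, a difference of means, kept its sign under every alternative run. For WT-defined regions in KO libraries it ran from 9.23 points without WT 2 h replicate 2 to 29.3 without KO 6 h replicate 1. For KO-defined regions in WT libraries it ran from 10.4 without KO 2 h replicate 1 to 32.1 without WT 2 h replicate 2. Single libraries did not always keep the order. Without WT 2 h replicate 2, KO 6 h replicate 1 called 25.8% of WT-defined regions, above both KO 2 h libraries at 21.5% and 24.8%. Without WT 6 h replicate 2 it called 49.8%, between the KO 2 h libraries at 48.2% and 51.5%. Not every order of single libraries thus followed the excess. Leaving out a 2 h library of the choosing genotype leaves 1 library to choose on. The excess was 13.4 points without WT 2 h replicate 1 for WT-defined regions. For KO-defined regions it was 12.8 with KO 2 h replicate 2 left out and 15.3 with WT 2 h replicate 1 left out. No setting could reach a p of 0.05. With the replicate number as a block, exchanging times only within a number, the excess stayed 24.1 and 23.7 points with an exact two-sided permutation p = 0.222, the smallest that 9 arrangements give.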
